A study of Mus musculus with 2 samples.

Results

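The Zfp genes of the mouse encode zinc finger proteins, and 221 of the 333 that the array names were read as expressed in bone marrow-derived macrophages (BMDMs). They were chosen by symbol, Zfp followed by a number, with the CCCH-type genes Zfp36, Zfp36l1 and Zfp36l2 left out, and selected on a MAS5 signal of at least 100 on 1 or both arrays. MAS5 signal gives each probe set a linear intensity. The array gives a single name to probe sets of 18194 genes, of which 9627 passed the same signal threshold. Where several probe sets name a gene, the brightest on average stands for it. Of the 221 members, 17 have a symbol that goes on after the number, among them Zfp652os, named for the opposite strand of Zfp652.

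RNA came from 2 cultures of BMDMs, 1 array each. Both held cells from C57BL/6J females aged 8 weeks, grown with M-CSF for more than 7 days. One was kept for 1 hr with medium, given in the sample labels as RPMI with 10% FCS. The other was kept for 1 hr with the supernatant of W3 cells, mouse T cells made sensitive to Fas ligand, which were exposed to it for 30 min and afterwards held in RPMI with 1% FCS for 60 min. Serum content and earlier contact of the medium with W3 cells therefore differed together with apoptosis and cannot be told apart on these arrays. With 1 array per condition there was no replicate and no test, so each ratio below compares 2 arrays and its precision is limited by that number. Genes read by several probe sets give a guide to scatter between probe sets on these same 2 arrays. It leaves out the spread between cultures, which 1 array per condition cannot give. In 5098 expressed genes the log2 ratios of a gene's 2 brightest readings differed with an SD that, per reading, came to 0.24. In total RNA, fewer cells of a type and less RNA per cell cannot be told apart.

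All 8 macrophage markers were above the signal threshold on both arrays, for example Csf1r, the M-CSF receptor (30999 with medium and 28572 with the supernatant). Mertk, a receptor for apoptotic cells, was the only marker among them past 1.5-fold (471 and 1050). The array names 8 T cell markers, and 6 of them stayed below a floor of 38.4 on both arrays, including Cd3d, Cd3e, Cd3g and Thy1. The floor was taken from 80 olfactory and vomeronasal receptor probe sets, as the 95th percentile on whichever array had the higher one. Of the other two, Cd8a read 72.9 and 20.7, and Cd28, which lay above the threshold, read 393 and 283. Summed over the list, T cell signals came to 543 and 340. None of the 14 markers of B cells, granulocytes, dendritic cells and stromal cells named on the array reached 100.

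Most mouse Zfp genes encode proteins with zinc fingers of the classical kind, in which a pair of cysteines and a pair of histidines hold a zinc ion and a short helix reads DNA. Many of them also carry a KRAB domain, which recruits the corepressor Trim28 and through it histone methylation and heterochromatin. KRAB zinc finger genes lie in clusters that grew by gene duplication, and several silence retroelements or protect imprinted loci. Messenger RNAs of zinc finger transcription factors are known as a short-lived class, so that their levels can follow a change in transcription or decay within hours. The study asked how macrophages respond to factors released by apoptotic cells, and the values below describe this class after 1 hr.

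The windows around the start sites of 4 members are shown first, because the results below return to them. For Zfp52 and Zfp263 both probe sets read higher with the supernatant, for Zfp287 all 3 probe sets above the floor read lower, and Zfp523 carries a complete cAMP response element (CRE) in its window. Each window runs from 250 bases before to 50 after a RefSeq start site in the GRCm38.p6 assembly, and is printed 5′ to 3′ on the strand of the gene. Capitals mark the CRE core TGACG on either strand, which in Zfp523 includes the full element TGACGTCA.

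Zfp52, chr17:21535289-21535588, plus strand: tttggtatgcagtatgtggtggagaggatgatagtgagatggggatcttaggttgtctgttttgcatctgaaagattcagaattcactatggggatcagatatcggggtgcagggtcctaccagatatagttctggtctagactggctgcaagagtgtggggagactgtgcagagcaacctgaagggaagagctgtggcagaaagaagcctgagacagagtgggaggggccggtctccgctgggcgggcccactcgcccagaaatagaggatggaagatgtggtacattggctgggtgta

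Zfp263, chr16:3743849-3744148, plus strand: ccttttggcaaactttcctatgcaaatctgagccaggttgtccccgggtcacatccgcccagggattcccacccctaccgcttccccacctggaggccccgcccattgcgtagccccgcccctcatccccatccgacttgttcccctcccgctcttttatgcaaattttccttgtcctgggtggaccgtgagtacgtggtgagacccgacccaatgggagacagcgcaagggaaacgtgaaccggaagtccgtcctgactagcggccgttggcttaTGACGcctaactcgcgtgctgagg

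Zfp287, chr11:62731847-62732146, minus strand: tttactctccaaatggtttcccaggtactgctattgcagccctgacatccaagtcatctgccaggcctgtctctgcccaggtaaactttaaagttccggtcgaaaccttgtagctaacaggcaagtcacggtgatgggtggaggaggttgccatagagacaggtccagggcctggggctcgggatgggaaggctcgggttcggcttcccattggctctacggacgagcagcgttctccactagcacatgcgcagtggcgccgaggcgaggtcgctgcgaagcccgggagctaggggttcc

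Zfp523, chr17:28176946-28177245, plus strand: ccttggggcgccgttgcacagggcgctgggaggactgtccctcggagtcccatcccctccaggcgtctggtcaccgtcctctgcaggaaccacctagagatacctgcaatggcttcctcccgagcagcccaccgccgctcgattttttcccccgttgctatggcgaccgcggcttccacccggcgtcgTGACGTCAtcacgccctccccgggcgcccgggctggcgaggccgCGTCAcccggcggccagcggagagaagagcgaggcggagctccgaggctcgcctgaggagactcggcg

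As a class the Zfp genes stood close to equal on both arrays. The median member read 284 with medium and 271 with the supernatant, and the median log2 ratio of supernatant to medium was -0.05. Over all 9627 expressed genes it was -0.02. With the supernatant 124 of the 221 members (56.1%) were lower, against 54.1% of all expressed genes. Between the quartiles the log2 ratios ran from -0.21 to 0.16, and 202 members lay within 1.5-fold.

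At least 2-fold lower with the supernatant was 1 member, Zfp759, where 0.644% of all expressed genes were that much lower. At least 2-fold higher were 2 members, Zfp667 and Zfp703, where 0.976% of all expressed genes were. At a threshold of 1.5-fold, 11 members (4.98%) were lower, beside 2.87% of all expressed genes, and 8 (3.62%) were higher, beside 2.74%. The signals of Zfp genes are low on this array, with a median of 283 over both arrays against 828 for all expressed genes, and dim probe sets scatter more. When the 4 bands of signal described next were weighted by the number of members in each, the shares of all genes past 1.5-fold were 6.05% lower and 3.98% higher. The members' shares were under both of these values.

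**Figure D1:**
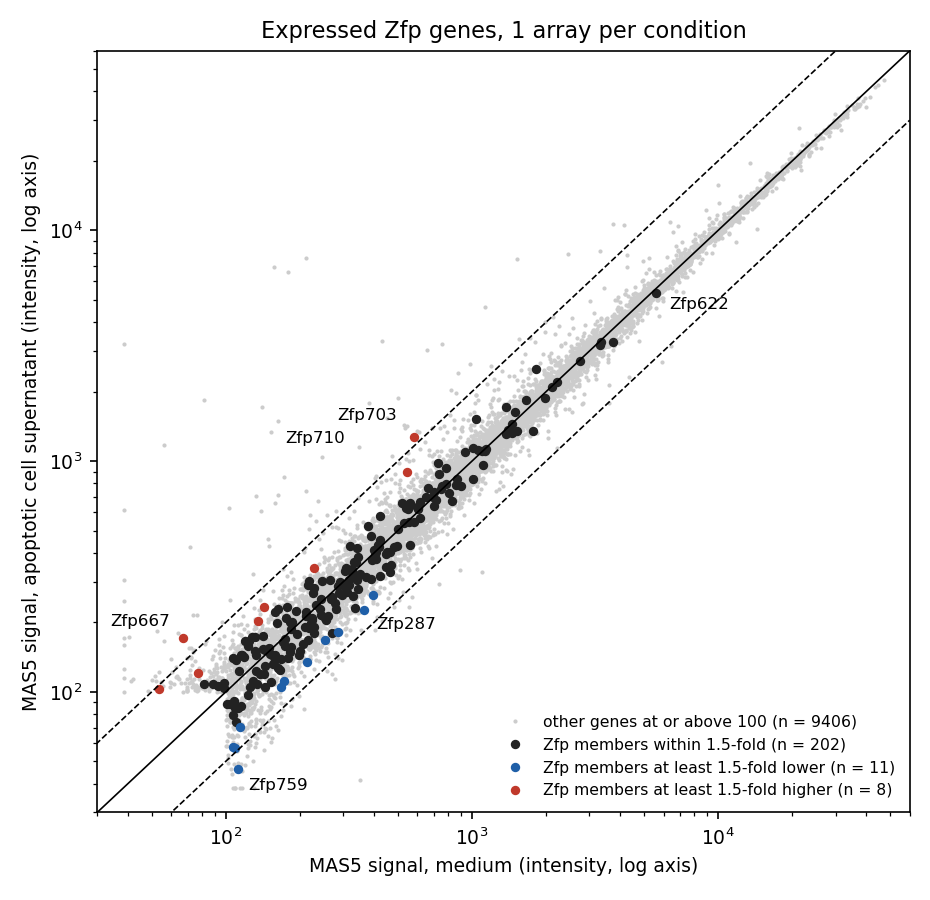
MAS5 signals (intensity, log axes, signals under the floor of 38.4 set to it) with medium and with apoptotic cell supernatant, 1 array each, for 221 Zfp members (large points) and 9406 other expressed genes (grey), with equal signals as a solid line and a 2-fold difference as dashed lines. Of the members 202 lie within 1.5-fold, 11 lie lower (blue) and 8 higher (red), and Zfp703 is the only member past 2-fold whose signals are above 100 on both arrays.

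Of the members, 78 had a mean signal under 200, and there 7 were at least 1.5-fold lower and 5 higher. That is 8.97% and 6.41%, next to 12.4% and 7.17% of the 1339 genes in the same range. Between 200 and 400 lay 68 members, with 4 lower (5.88%, all genes 4.50%) and 1 higher (1.47%, all genes 2.32%). Above these, from 400 to 800, 1 of 41 members was higher (2.44%, all genes 2.51%) and none lower (all genes 1.20%). Of 34 members at 800 and above, again 1 was higher (2.94%, all genes 1.75%) and none lower (all genes 0.427%). The SD of the log2 ratio ran from 0.44 in the lowest band to 0.22 and 0.29 in the upper bands, while for all genes it ran from 0.51 to 0.28. The medians of the members were -0.12, -0.10, 0.03 and -0.02 from the lowest to the highest band, and those of all genes -0.10, -0.05, -0.01 and -0.01.

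**Figure D2:**
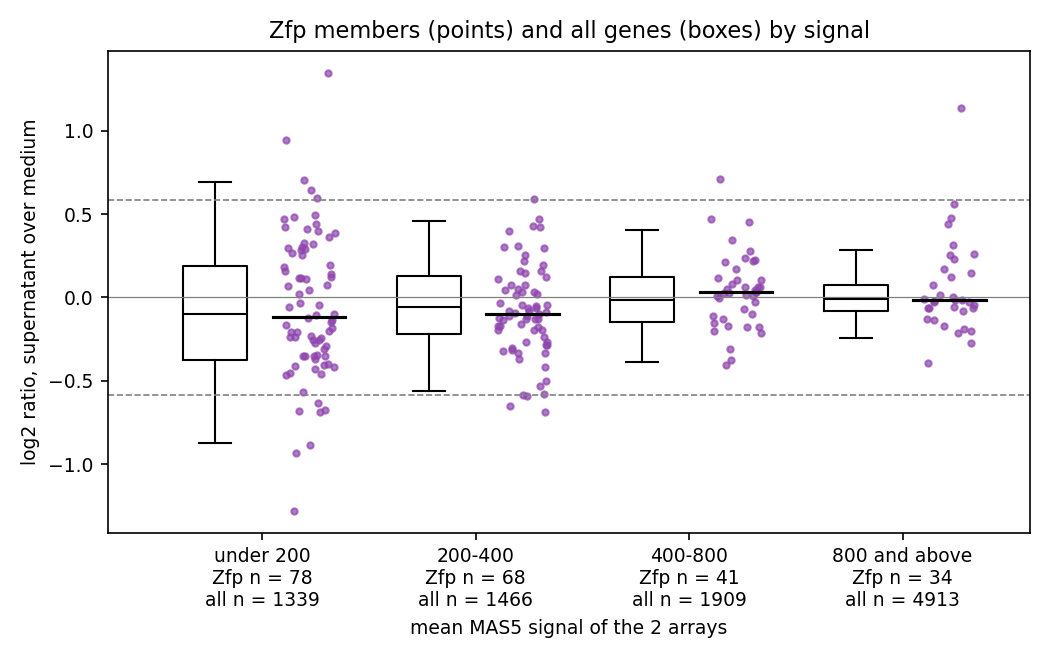
Log2 ratio of supernatant to medium in 4 bands of mean MAS5 signal, for all expressed genes (boxes with median and quartiles, whiskers from the 5th to the 95th percentile) and for each Zfp member (points, median as a bar). In the lowest band 12 of 78 members lie outside the dashed lines at 1.5-fold, and in the highest band 1 of 34, Zfp703.

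The threshold bears on the extremes, because a gene near 100 can enter through 1 array alone. Of the members, 200 were at or above 100 on both arrays, 13 with medium alone and 8 with the supernatant alone. The 13 were all lower and the 8 all higher, as their selection requires. They hold 4 of the 11 members at least 1.5-fold lower and 3 of the 8 higher. Just inside the threshold stood Zfp949 (101 with medium and 89.0 with the supernatant), Zfp27 (98.1 and 103) and Zfp689 (53.3 and 102). Just outside it stood Zfp566 (99.8 and 97.7), Zfp862-ps (97.9 and 90.7) and Zfp935 (96.5 and 88.3).

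Zfp703 had the largest ratio upward among members above 100 on both arrays. It encodes a corepressor-binding zinc finger protein of the NET family, known from breast cancer and development. It was 2.20-fold higher, at 579 on the medium array and 1273 on the supernatant array. On its other 2 probe sets no signal exceeded 7.47, far below the floor, so the difference rests on 1 probe set. The paralog Zfp503, of the same family, read 107 and 57.8, 1.85-fold lower, and entered through the medium array alone. Its second probe set was under the floor on both arrays.

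Zfp667, a KRAB zinc finger gene, was 2.55-fold higher on its only probe set (66.9 and then 171). It was a member through the supernatant array alone. Zfp710 read 544 and 893, 1.64-fold higher, and its other probe set was 1.15-fold higher (138 and 158). Zfp608 read 143 and 233, 1.63-fold higher, with 1.17-fold on its second probe set. Zfp689 was 1.92-fold higher on the probe set used and 1.24-fold higher on another (50.2 and 62.2). Both of its readings were dim. Zfp317 (77.1 and 121), Zfp398 (134 and 203) and Zfp654 (228 and 343) were 1.57-fold, 1.51-fold and 1.51-fold higher. Of these, Zfp317 and Zfp654 are read by 1 probe set each. Zfp317, like Zfp689, passed the threshold through the supernatant array alone. The other probe sets of Zfp398 above the floor on both arrays were dim, and were 1.05-fold and 1.35-fold higher.

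Zfp52 was 1.48-fold higher, from 1033 with medium to 1527 with the supernatant, and its second probe set was 2.26-fold higher (90.5 and 204). Zfp263, a SCAN zinc finger gene, was 1.39-fold higher (1811 and 2518) and 1.41-fold higher on its other probe set (1006 and 1417). Zfp52 lies between Zfp53 and Zfp948 in the order of protein-coding genes. Zfp948 read 724 and 982, 1.36-fold higher, whereas Zfp53 read 530 and 539. The last of the 10 largest ratios upward was that of Zfp959 (158 and 222, 1.41-fold), which lies next to Zfp119a.

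Zfp759 was 2.43-fold lower, at 112 with medium against 46.1. Its other probe set read 70.3 and 61.7, only 1.14-fold lower. Zfp661 (108 and 56.9) was 1.91-fold lower on its only probe set, and Zfp493 (114 and 70.7) was 1.61-fold lower. The second probe set of Zfp493 was under the floor on both arrays. All of these, like Zfp503, passed the threshold through the medium array alone.

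Zfp287, a SCAN and KRAB zinc finger gene, had the largest ratio downward among members above 100 on both arrays. The medium array gave 363 and the supernatant array 225, 1.61-fold lower. Its 2 other probe sets above the floor read 78.0 and 47.0 (1.66-fold lower) and 69.3 and 47.3 (1.46-fold lower), so that all readings above the floor lay on the same side. Zfp523, which like its relative Zfp143 is a transcriptional activator, read 167 and 104, 1.60-fold lower. Zfp119a (214 and 134), Zfp788 (285 and 181), Zfp397 (173 and 111) and Zfp945 (396 and 263) were between 1.51-fold and 1.60-fold lower. For Zfp397 a second probe set above the floor on both arrays was 1.37-fold lower, and for Zfp945 1.38-fold. Zfp709, named after its values were seen, was just past the 1.5-fold threshold (253 and 168) and was 1.73-fold lower on its other probe set.

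**Figure D3:**
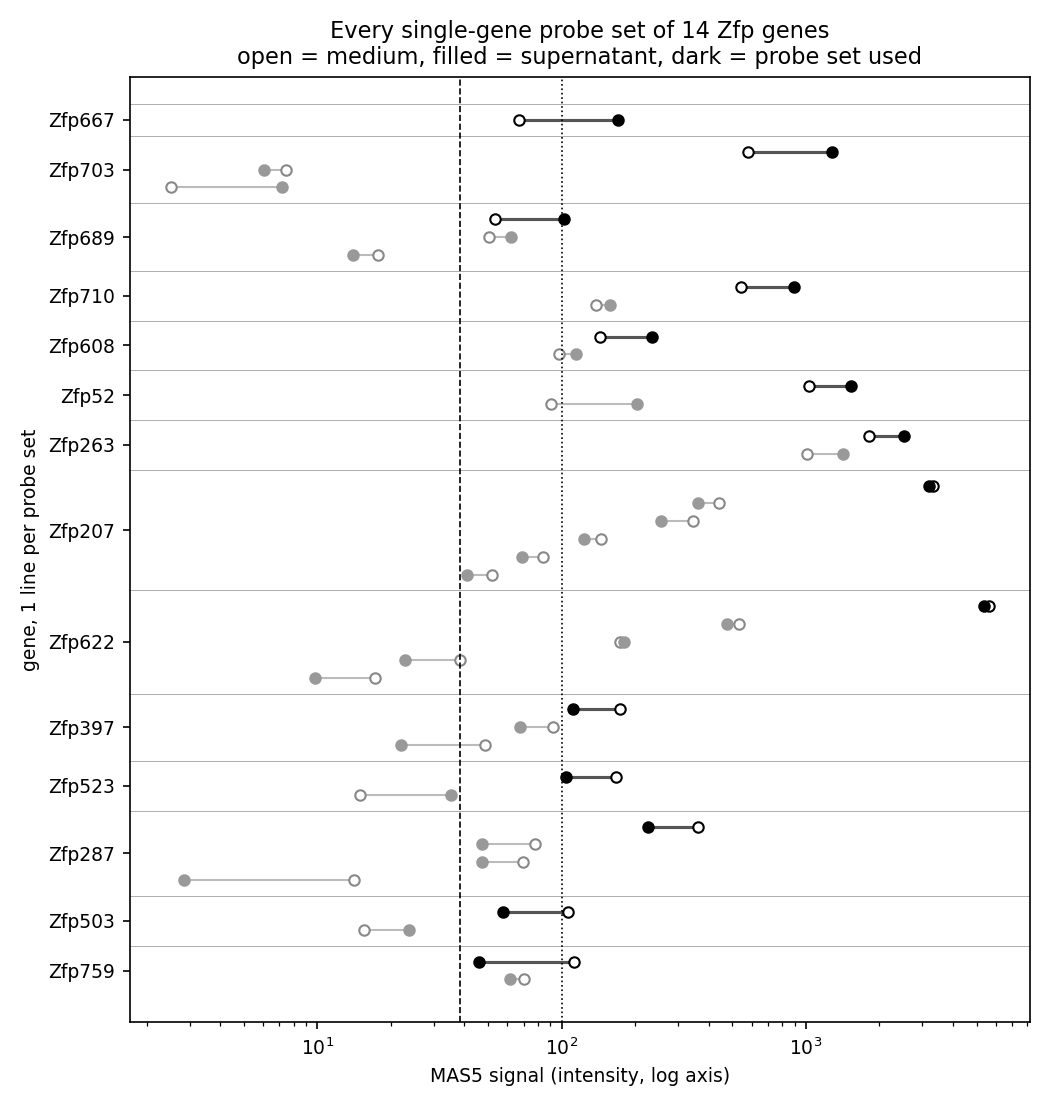
MAS5 signal (intensity, log axis) of every single-gene probe set of 14 Zfp genes, with medium (open circles) and with supernatant (filled circles), 1 array each, with the probe set used in black, the floor of 38.4 as a dashed line and the threshold of 100 as a dotted line. The 3 probe sets of Zfp287 right of the floor all read lower with the supernatant, both of Zfp52 and of Zfp263 read higher, and the difference in Zfp703 rests on its 1 bright probe set.

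More than 1 probe set reads 120 of the 221 members, and 86 of them have another probe set above the floor on both arrays. Of the 136 such probe sets, 86 (63.2%) lay on the same side of equal signals as the one used. For the members past 1.5-fold, all 11 further probe sets lay on the same side, but 2 of these were past 1.5-fold themselves. Over the 86 members, 29 were lower in every reading, 13 were higher in every reading and 44 were mixed. With every reading at least 1.25-fold apart, a cut that was not planned, there were 8 members. They were Zfp52 and Zfp263 on the higher side and Zfp709, Zfp287, Zfp945, Zfp397, Zfp595 and Zfp236 on the lower side, the last 2 named after their values were seen. The same counts and share were not taken over all expressed genes, so no background stands beside the 8. Between the probe set used and each of the 136 others, the log2 ratios differed with an SD that, per reading, came to 0.29. The value given earlier for all expressed genes used only the 2 brightest readings of each gene, so the 2 SDs are not alike.

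The 5 members with the brightest signals were all slightly lower on the probe set used, by at most 1.14-fold. Zfp622, a cytoplasmic factor of 60S ribosome assembly, read 5608 with medium and 5361 with the supernatant. Zfp367 read 3748 and 3281, and a dim second probe set was 1.62-fold lower (74.4 and 45.8). Zfp91, a ubiquitin ligase with zinc fingers, read 3339 and 3280, and the nucleolar protein gene Zfp330 read 2736 and 2719. Zfp207, a spindle and splicing factor that binds Bub3, read 3311 and 3183. The 5 further probe sets of Zfp207 were all above the floor and lower with the supernatant, by 1.18-fold to 1.35-fold, while the bright one used was 1.04-fold lower. These signals are intensities of different probe sets and give no order of mRNA levels between genes.

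Grouped by role, no group of Zfp genes stood to one side as a whole. Of all expressed genes 2.87% were at least 1.5-fold lower and 2.74% higher, so groups this small would hold few such genes. The RNA, ribosome and spliceosome associated genes were all expressed (10 of 10 named on the array), with a median log2 ratio of -0.01 and none past 1.5-fold. Zfp830, a spliceosome component, was the lowest (387 and 309, 1.25-fold lower), though its other 2 probe sets above the floor had ratios near 1. Zfp385a, which binds RNA, read 97.8 and 109, and Zfp106, also an RNA-binding protein, read 1662 and 1840. The double-stranded RNA-binding Zfp346 was 1.14-fold lower (310 and 271) on the probe set used and 1.36-fold higher on a dimmer one.

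Of the 31 activators and repressors taken to lack a KRAB domain, 22 were expressed. Besides Zfp703, Zfp710 and Zfp503, none of them was past 1.5-fold, and their median was 0.01. Zfp467 was 1.37-fold lower (144 and 105), with 1.32-fold lower and 1.01-fold higher on 2 dimmer probe sets. Zfp423 and Zfp521, regulators of fat and blood cell differentiation, were under the floor on both arrays. Of the SCAN genes listed, the array names 7 and all were expressed, with a median of 0.12. The list does not hold Zfp287, and with it the median of the 8 genes was -0.07, with Zfp263 highest and Zfp287 lowest. In the list, Zfp446 (123 and 96.6) and Zfp444 (143 and 120) were lower by less than 1.5-fold.

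Of 7 repressors of retroelements and imprinted loci, 5 were expressed, and none was past 1.5-fold. Zfp809, which silences murine leukemia virus in embryonic stem cells, read 602 and 620. Zfp932, a repressor of endogenous retroviruses, read 340 and 422 (1.24-fold higher), and Zfp708 115 and 86.4 (1.33-fold lower). Zfp568, which controls a placental transcript of Igf2, read 350 and 324, and a dim second probe set was 1.79-fold lower (84.4 and 47.0). Zfp445, which acts at imprinted loci, read 2223 and 2193, whereas Zfp57, its partner in that role, was under the floor on both arrays. The 2 ligase genes, Zfp91 and Zfp451, a SUMO ligase, had log2 ratios of -0.03 and 0.17. The other readings of Zfp451 above the floor disagreed, from 1.34-fold lower to 1.58-fold higher.

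**Figure D4:**
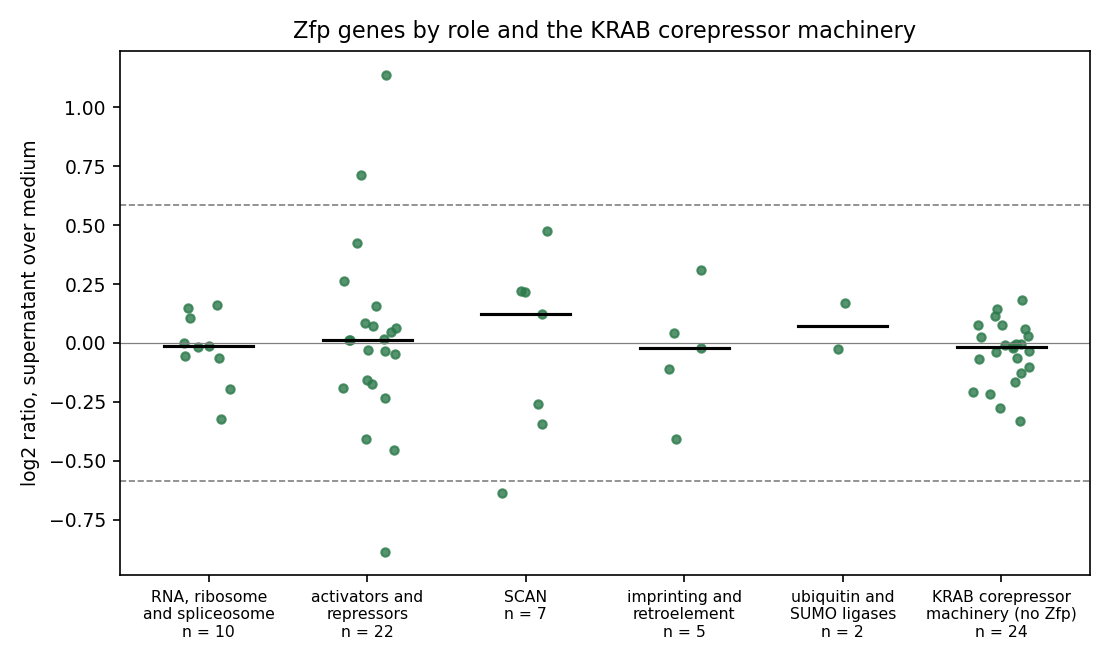
Log2 ratio of supernatant to medium for expressed Zfp genes in 5 role groups (SCAN without Zfp287) and for the KRAB corepressor machinery, which holds no Zfp gene (points), each median drawn as a bar, and 1.5-fold marked by dashed lines. Zfp703, Zfp710, Zfp503 and Zfp397 lie outside the dashed lines, and all 24 genes of the machinery lie inside.

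KRAB zinc fingers work through a shared corepressor machinery. Of 25 genes of this machinery named on the array, 24 were expressed and none of these was 1.5-fold apart in either direction. Among all expressed genes 2.87% were that much lower and 2.74% higher, so none of 24 is near those shares. The log2 ratios of the 24 ran from -0.33 to 0.18 with a median of -0.02. The gene left out, Cbx3 (70.2 and 47.6), was 1.48-fold lower. Trim28, the corepressor that KRAB domains bind, read 5381 with medium and 5127 with the supernatant. Setdb1, the histone methyltransferase it recruits, read 601 and 586. Chd3, a remodeler of the NuRD complex, was the lowest (310 and 247). Mphosph8, of the HUSH silencing complex, was 1.21-fold lower (1417 and 1169), and both were named after their values were seen.

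Members with and without a Zfp neighbour had similar medians. By gene order in the RefSeq table, 112 members lie directly beside another Zfp gene, 108 do not, and 1 (Zfp652os) could not be placed among protein-coding genes. The median log2 ratio was -0.06 for members beside another Zfp gene and -0.03 for the others. At least 1.5-fold lower were 5 (4.46%) and 6 (5.56%) of them, beside 2.87% of all expressed genes. At least 1.5-fold higher were 3 (2.68%) and 5 (4.63%), beside 2.74%. Of 46 pairs of adjacent members, 29 lay on the same side of equal signals. Some members stand in more than 1 pair. The same share was not taken over adjacent pairs of all expressed genes, so no background stands beside it. Close paralogs can share probe sequence, and of the probe sets used 9 carry the suffix _x, 9 the suffix _s and 14 the suffix _a.

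Other zinc finger classes were set beside the Zfp genes under the same rule. The 32 expressed Zbtb genes, whose proteins join zinc fingers to a BTB domain, had a median log2 ratio of 0.01, with 1 gene at least 1.5-fold lower and none higher. The 11 Zscan and Zkscan genes had a median of -0.13, with 1 higher. The 13 Zc3h genes, which like Zfp36 hold CCCH fingers, had a median of -0.17, with 2 higher. For 38 ribosomal protein genes, whose mRNAs are known to be stable, the median was -0.03, with 28 lower, none at least 1.5-fold lower and 2 at least 1.5-fold higher. Of all expressed genes 54.1% were lower, 2.87% at least 1.5-fold lower and 2.74% at least 1.5-fold higher, with a median of -0.02. Classes this small would hold few genes past 1.5-fold at those shares. The ribosomal protein genes are far brighter, with a median signal of 29091.5 against 283 for the members, so the 2 classes differ in signal as well. These differences between classes were not tested.

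Windows at the start site were found for 182 members, 226 windows in all. The CRE core TGACG was in 35.4% of them, beside 32.5% of 10118 windows of all expressed genes and 20.8% of all 32841 windows in the table. The full CRE TGACGTCA was in 8 windows of members (3.54%), beside 3.24% and 1.79%, and each full CRE also counts as a core. Motifs were searched on both strands. The Nr4a site AAAGGTCA and the Egr site GCGTGGGCG were in 0 windows of members, beside 0.899% and 1.25% of windows of all expressed genes. The AP-1 motif TGANTCA was in 4.42% against 5.07%. Of the windows printed above, that of Zfp523, 1 of 2 listed for the gene, holds the full CRE, that of Zfp263 a core site, and those of Zfp52 and Zfp287 neither. A match describes letters in the window and not binding. The windows of members had a median GC content of 57.0%, beside 61.0% for all expressed genes.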

How the data were processed

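RNA of 2 BMDM cultures was labeled with the GeneChip 3′ IVT Express kit and hybridized to an Affymetrix mouse genome array. The authors deposited MAS5 signals, an intensity for each of 45101 probe sets, scaled to a trimmed mean of 500.0 (2% off each end). The genome build is not given in the sources used here. Groups came from the sample labels. Names came from the array's annotation table, with 34958 probe sets given 1 gene, 932 several and 9211 none, and all 221 members matched RefSeq (GRCm38.p6) with 0 symbols altered. Python 3.11.15, numpy 2.4.6, pandas 2.3.3, statsmodels 0.14.6 and matplotlib 3.10.9 were used.

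A floor of 38.4 replaced lower signals (0 members), and log2 ratios of supernatant to medium were taken. No test was run, for want of replicates. The steps were tested on simulated data with shifts larger than 2-fold in bright genes. That check does not cover 1.5-fold differences or dim genes. Members and lists were chosen with earlier results of these data known. Genes named are those past 2-fold, the 10 largest ratios in each direction among members above the floor, the 5 brightest, 3 on either side of the threshold, up to 4 per role group, and Trim28 and Setdb1. Alternatives covered scaling, the floor, the probe set and the threshold. Protein sequences were not used here, so members were not divided by KRAB domain.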

Additional observations from a re-analysis of the deposited data

Results flagged for a closer look

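A probe set that the annotation gives jointly to Gm44505, Zfp91 and Cntf, and that was therefore used for no gene, read 36.5 with medium and 93.6 with the supernatant, at least 2.44-fold higher against the floor. It was singled out because it was at least 2-fold higher among probe sets of these same arrays that the comparison of genes left out. Another shared probe set, of Gm44505 and Zfp91, read 725 and 673. Of the probe sets of Zfp91 alone, the one used is given above, and another above the floor on both arrays was 1.08-fold lower. In all 27 probe sets were shared between a Zfp gene and another gene, and the one shared with Cntf was the only one at least 2-fold higher.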

How the results depend on the processing

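No paired analysis was possible because there is a single array for medium and a single one for supernatant. The medians of KRAB and other members, planned as results, were not run, since protein sequences were not used here. The median log2 ratio of the members stayed between -0.06 and -0.01 under every alternative run, and the share of members lower between 51.1% and 58.6%. The share of all genes lower ran from 46.7% to 55.5%. After median-centring 52.5% of members and 46.7% of all genes were lower, and without suffixed probe sets 58.6% and 54.0%. At a threshold of 50 the shares were 54.3% and 54.6%. Median-centring shifted all ratios by 0.03. The count of members at least 2-fold lower (1 in the report) became 0 with a doubled floor, 0 with the floor as a pseudocount, 0 at a threshold of 200, 0 with the mean signal at or above 100, 0 with both arrays at or above 100, 2 without suffixed probe sets, 3 at a threshold of 50 and 4 with the mean of all probe sets. The count at least 2-fold higher (2 in the report) became 1 with the pseudocount, 1 at 200 and 1 with both arrays at or above 100, and 3 after quantile normalization or lowess. The count at least 1.5-fold lower (11 in the report) became 7 with lowess, 7 with the doubled floor and 4 with the pseudocount. It became 17 at 50, 5 at 200, 7 by mean signal and 7 by both arrays. These last 4 settings held 267, 153, 205 and 200 members. The members' shares there were 6.37%, 3.27%, 3.41% and 3.5%, beside 4.83%, 1.55%, 2.21% and 1.63% of all genes. The shares were 3.14% beside 2.19% with lowess, 3.17% beside 2.48% with the doubled floor and 1.81% beside 1.61% with the pseudocount. The count at least 1.5-fold higher (8 in the report) became 4 with the pseudocount, 5 at 200 and 5 by both arrays. At 200 that was 3.27% beside 2.18% of all genes, by both arrays 2.5% beside 2.01%, and with the pseudocount 1.81% beside 2.14%. None of these shares of all genes was weighted by the 4 bands of signal. The requirement on both arrays was chosen after seeing the data. The mean of all probe sets was a mean of log2 signals, floored afterwards. With it the log2 ratio of Zfp523 was 0.27 in place of -0.68, and that of Zfp703 was 0 because its geometric mean signals lay under the floor. It moved Zfp622 to -0.35, Zfp367 to -0.45, Zfp91 to -0.58, Zfp568 to -0.48 and Zfp503 to -0.08. Zfp759 moved to -0.73, Zfp945 to -0.19, Zfp689 to 0.22, Zfp710 to 0.46, Zfp398 to 0.34 and Zfp346 to 0.13. Further from equal moved Zfp788, to -1.32, and Zfp52, to 0.87. The doubled floor moved Zfp759 to -0.54, Zfp661 to -0.50, Zfp503 to -0.47 and Zfp689 to 0.42. The other probe set of Zfp523 was under the floor. The differences of Zfp523 and Zfp703 therefore rest on 1 probe set each.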

Other observations

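Of the 112 Zfp genes under 100 on both arrays, 58 were under the floor on both and 54 were above it on at least 1. Over these 54 the median log2 ratio was 0.03, with 6 at least 1.5-fold lower (11.1%) and 3 higher (5.56%). Of all 2350 named genes in the same range of signal, 11.0% were that much lower and 7.66% higher, and their median was -0.06. For the 54 Zfp genes the highest ratio was 0.81 on the log2 scale and the lowest -1.11. They lie near the floor, and no member of the expressed class is among them.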
